A study of Mus musculus with 67 samples.

Results

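Cytosolic ribosomal protein genes were followed in RNA-seq of mouse forelimb buds before and after the onset of Hedgehog signalling, with and without the transcription factor GLI3. Members were chosen by name: every gene called Rpl or Rps with a number, Rplp0, Rplp1 or Rplp2, with their a, l and x forms, and Rpsa, leaving out rows named as pseudogenes (-ps). The rule gave 87 of 46983 genes, of which 51 carry a large-subunit and 36 a small-subunit name. The 14 RNA libraries, of 67 samples in the series, fall into 4 groups. E9.25 WT (n = 3) and E9.25 Gli3-/- (n = 4) are whole forelimb buds of embryos with 21 to 23 somites, taken before Hedgehog signalling starts in the limb. E10.5 anterior WT (n = 4) and E10.5 anterior Gli3-/- (n = 3) are the anterior part of forelimb buds at 32 to 35 somites, the part that receives little Hedgehog ligand. All embryos were on a Swiss Webster background, and Gli3-/- stands for the Xt-J allele of Gli3 in both copies. By the labels, each library pools 4 bud pairs at E9.25 and 2 at E10.5, while the paper's methods give about 4 at both stages. The stages therefore also differ in the tissue taken, whole against anterior bud, and by the labels in pooled pairs. Stage cannot be told apart from these.

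A ribosome is built from rRNA and a full set of ribosomal proteins, in a small subunit that reads the mRNA and a large subunit that joins the amino acids. Dividing embryonic cells make ribosomes at a high rate, and their genes are among the most abundantly transcribed. Many vertebrate ribosomal protein mRNAs begin with a C followed by a pyrimidine tract, the 5' TOP motif, through which mTORC1 and LARP1 control their translation, and many genes carry snoRNAs in their introns. Mutations of Rps19, Rps7, Rps20, Rpl5, Rpl11 and Rpl38 are known from Diamond-Blackfan anemia or from mouse mutants with defects in pigment, skeleton or blood.

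The start sites of some members named below are printed to show how the pyrimidine tract differs among them. The sequences are RefSeq's on GRCm38.p6, 15 bases before and 15 from an annotated start, read along the gene's strand, with the longest run of C and T that lies within 10 bases of the start in capitals. Rpl35a has 3 annotated starts, with runs of 4, 13 and 3 bases, and the start with the longest run is shown. Long runs are more frequent in this choice than among all members. Other members named below have short ones, such as Rps19 (4 bases), Rps12 (2), Rpl11 (2) and Rps7 (5).
Rpl7a (chr2:26910792-26910821, plus strand): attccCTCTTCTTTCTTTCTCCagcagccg
Rpl35a (chr16:33056467-33056496, plus strand): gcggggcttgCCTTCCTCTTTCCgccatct
Rps15a (chr7:118116133-118116162, minus strand): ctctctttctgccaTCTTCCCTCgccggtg
Rplp2 (chr7:141447636-141447665, plus strand): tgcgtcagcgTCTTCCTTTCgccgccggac
Rpl38 (chr11:114668565-114668594, plus strand): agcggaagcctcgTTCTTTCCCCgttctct
Rps6 (chr4:86857353-86857382, minus strand): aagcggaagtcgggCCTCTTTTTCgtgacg
Rps2 (chr17:24720048-24720077, plus strand): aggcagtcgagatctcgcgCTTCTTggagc
Rpl26 (chr11:68901551-68901580, plus strand): ctcgcggcaaCTTacagaaccggaagtcgc

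RefSeq start sites were at hand for 63 of the 87 members. A pyrimidine run of at least 8 bases within 10 bases of a start was found in 21 of the 63 (33.3%), against 8.71% of 27025 genes searched the same way. The letters TCTTT stood in that window in 9 members (14.3%), against 2.58% of all genes. Over the whole 300 bases around each start, from 250 before to 50 after it, and on both strands, CCGGAAG was found in 26 members (41.3% against 9.93%), among them Rpl26, Rps2, Rps6 and Rpl38. AAGATGG was found in 10 members (15.9% against 7.28%), among them Rpl7a, Rpl35a and Rps15a, and GGGCGG in 39 (61.9% against 38.2%). CACGTG was about as frequent in members (6, or 9.52%) as in all genes (8.09%), and TATAAA between 40 and 15 bases before the start was found in 1 member (1.59% against 2.41%). These matches describe letters in a window and say nothing of binding.

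The library check started from Gli3. Its level was 44.2, 15.8 and 44.6 TPM (a length-corrected share of the library, in transcripts per 1000000) in E9.25 WT, and 14.3, 20.6, 20.8 and 19.1 in E9.25 Gli3-/-. The library labelled E9.25 WT replicate 2 thus had Gli3 in the range of the mutants, and the counts that rest on it are given with and without it. At E10.5 the groups stood apart, at 73.4 to 89.7 TPM in WT and 38.7 to 40.9 in Gli3-/-. Depth, estimated from the files' coverage and FPKM columns, was 38.1 M to 56.8 M reads, and replicates correlated at 0.975 to 0.992 over genes. Limb mesenchyme markers (Prrx1, Tbx5, Fgf10, Twist1, Lmx1b and Msx1) were present in all 14 libraries, and neural markers summed to under 1 TPM.

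Of the 87 members, 83 were at 1 TPM or more in all 14 libraries and were tested, and 80 were at 100 TPM or more throughout. Rpl3l, Rpl10l and Rps12l1 were listed at 0 in every library, and Rpl39l averaged 0.023 TPM. Rpl3l is a paralog of Rpl3 used in muscle, and Rpl10l and Rpl39l are paralogs known from the testis. The median of the 83 members' mean levels was 1597 TPM, against 13.2 TPM over the 16368 genes with at least 1 TPM in 3 libraries. Rplp1, an acidic protein of the ribosomal stalk, had the highest mean (3917 TPM), followed by Rps14 (3519), Rps26 (3508), Rpl41 (3459.6), the gene of the smallest ribosomal protein, and Rpl13a (3181). Rps3a3 (49.0 TPM) was the lowest member above 1 TPM.

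Members lie on 19 chromosomes, 15 of them on chromosome 7 and 4 on X. Their gene spans are short, with a median of 3221 bases against 15171 over the detected genes. The annotation places 32 snoRNA genes inside 24 members, 4 of them in Rpl13a and 3 in Rpl23a. How exact a level is depends on near-identical and overlapping genes. Of the members, 59 have between them 271 rows named as their pseudogenes, 165 of which reached 1 TPM, so that reads of near-identical copies may have been split. Moreover, 24 members are overlapped on the same strand by a detected gene, and whether counting used strand is not given in the sources used here.

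Summed, the 87 members made up a larger mean share of RNA in E9.25 WT than in the other groups. They took 16.1%, 17.8% and 16.2% of all TPM in the E9.25 WT libraries, and 16.2%, 12.2%, 13.3% and 14.9% in E9.25 Gli3-/-. In E10.5 anterior limb buds they took 12.1%, 13.5%, 12.3% and 11.8% in WT, and 12.2%, 12.2% and 11.8% in Gli3-/-. Replicate 2 of E9.25 WT was the highest of all, while replicate 1 of E9.25 Gli3-/- (16.23%) lay between replicates 1 (16.05%) and 3 (16.24%) of E9.25 WT. The mean shares were 16.7% ± 0.933 (SD, n = 3), 14.1% ± 1.79 (n = 4), 12.4% ± 0.724 (n = 4) and 12.1% ± 0.207 (n = 3), in the same order. Leaving out replicate 2, the E9.25 WT mean was 16.1%. Large- and small-subunit members moved together, their summed levels keeping a ratio between 1.18 and 1.27 in all libraries. In such bulk samples fewer cells of a type and less RNA per cell cannot be told apart.

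**Figure D1:**
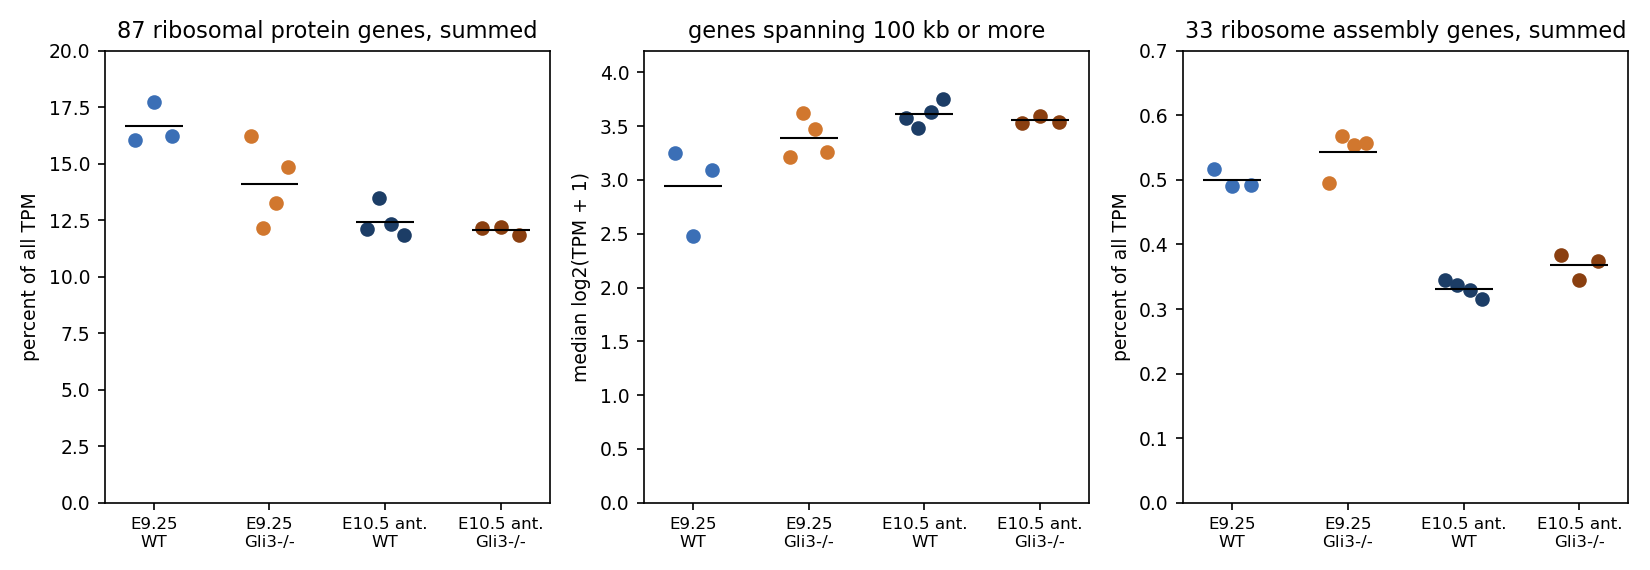
Each point is 1 library, by group, and lines are group means. The left panel gives the summed share of the 87 members in percent of all TPM, the middle panel the median log2(TPM + 1) of genes spanning 100 kb or more, and the right panel the summed share of 33 ribosome assembly genes. The members' share is highest at E9.25 WT (16.1% to 17.8%), and the library with the highest share has the lowest long-gene median (2.48).

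A measure linked to RNA quality broadly ran against that share. The median log2(TPM + 1) of genes spanning 100 kb or more was 3.25, 2.48 and 3.09 in E9.25 WT, 3.21 to 3.62 in E9.25 Gli3-/-, 3.48 to 3.75 in the anterior WT buds of E10.5 and 3.53 to 3.60 in their Gli3-/- counterparts. The library with the lowest value, E9.25 WT replicate 2, was the one with the highest share of ribosomal protein RNA. It was also the E9.25 WT library with low Gli3 (15.8 TPM). Mitochondrial RNA was between 4.23% and 7.81% of TPM. The part of these differences in the results was not tested, apart from the fits with the trend over gene span removed.

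Most members varied together from library to library. With group means removed, the mean pairwise correlation of the 83 members over the 14 libraries was 0.457, against 0.116 over 16368 genes and 0.123 over 77 mitochondrial ribosomal protein genes. All these points share library, depth and scaling. Correlation with the mean of the other members reached 0.5 in 67 members and 0.9 in 28, with Rplp1 (0.983), Rpl23a and Rps25 at the top. Rps2 (-0.548), Rplp2 (-0.385), Rpl7l1 (-0.335), Rps4l (-0.321) and Rpl8 (-0.202) ran the other way.

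The comparison of E10.5 anterior WT with E9.25 WT asks how the genes differ between the stages when GLI3 is present. Ribosomal protein genes fell as a family, with 68 of 83 members lower and 0 higher. Over all 15444 genes tested, 10.6% were lower and 38.1% higher (limma on log2(TPM + 1), Benjamini-Hochberg adjusted p under 0.05 over all genes). The members' median log2 difference was -0.41, against 0.34 over all genes tested, a gap of -0.75. In 65 members every E10.5 library lay under every E9.25 library, against 12% of all genes tested, and without replicate 2 of E9.25 WT in 65 members against 14.6%. The count was 38 of 48 large-subunit and 30 of 35 small-subunit members, and 20 of the 24 members that carry snoRNA genes.

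The choice of scale moved these counts. TPM shares sum to the same total in each library, so a lower share of one family is by construction a higher share of the rest. How much of the differences comes from this was not tested. Median-of-ratios size factors moved the median of all genes from 0.34 to 0.04 and its split from 5885 higher and 1635 lower to 3184 and 3274. On that scale 78 members were lower. Quantile normalization gave 2668 and 3050 genes, and 30 members lower and 1 higher. With the trend over gene span removed, 76 members were lower with a median of -0.64, and the count over all genes is not given here. With replicate 2 of E9.25 WT left out, 51 were lower, with a median of -0.37, beside 9.65% of all genes lower and 33.6% higher. Of 24 members chosen for naming that were called lower, 21 were still called without that library, Rps27, Rps6 and Rpl7l1 being the exceptions. Rpl35a then differed by -1.30, Rpl26 by -1.44, Rplp1 by -0.71 and Rps19 by -0.46 on the log2 scale. Beside these changes, flank mesoderm markers summed to 64.9 to 115.8 TPM in E9.25 WT and 42.5 to 54.6 in E10.5 WT, 5 of 7 tested being lower and 1 higher (2 and 1 of 4 without replicate 2 of E9.25 WT). Somite and muscle progenitor markers summed to 24.8 to 28.0 TPM at E9.25 and 65.6 to 77.1 at E10.5, 5 of 6 being higher and 1 lower. The part of cell makeup in the members' differences was not tested.

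Rpl35a and Rpl26, both proteins of the large subunit, showed the largest differences of single rows. Rpl35a (ENSMUSG00000060636.13, chr16:33056453-33060189, mm10) was at 1519.8, 1656 and 1140.3 TPM in E9.25 WT and at 533, 463, 568 and 584 TPM in E10.5 WT. The groups did not overlap, and the log2 difference was -1.41 ± 0.14 (SE; limma adjusted p = 0.000222). Its 6 pseudogene rows summed to 972 to 1128 TPM in E9.25 WT and 988 to 1352 in E10.5 WT, and Rpl35a with them differed by -0.59 (limma adjusted p = 0.00182). Rpl26 (ENSMUSG00000060938.14, chr11:68901583-68906989, mm10), which also binds the p53 mRNA, was at 2998, 2538 and 2722 TPM in E9.25 WT and at 1146, 1716, 598 and 1039.8 in E10.5 WT. Its E10.5 libraries spread widely, all under those of E9.25, and the log2 difference was -1.38 ± 0.29 (limma adjusted p = 0.00596).

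Rpl21, Rps2 and Rps15a followed. Rpl21 stood at 780.2, 946 and 722 TPM in E9.25 WT and 506, 546, 343 and 342 TPM in E10.5 WT, a log2 difference of -0.93 ± 0.19 (limma adjusted p = 0.00497). Rps2, a protein at the mRNA entry channel, stood at 1046, 767 and 590.0 against 431, 388, 501 and 417 TPM, a log2 difference of -0.85 ± 0.18 (limma adjusted p = 0.00592). Rps15a stood at 379, 402 and 474 against 217, 250.04, 224 and 238 TPM, a log2 difference of -0.84 ± 0.10 (limma adjusted p = 0.000459). In none of the 3 did the stages overlap. Summed with its 8 pseudogene rows, Rps2 was not lower (log2 difference -0.12, limma adjusted p = 0.495).

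**Figure D2:**
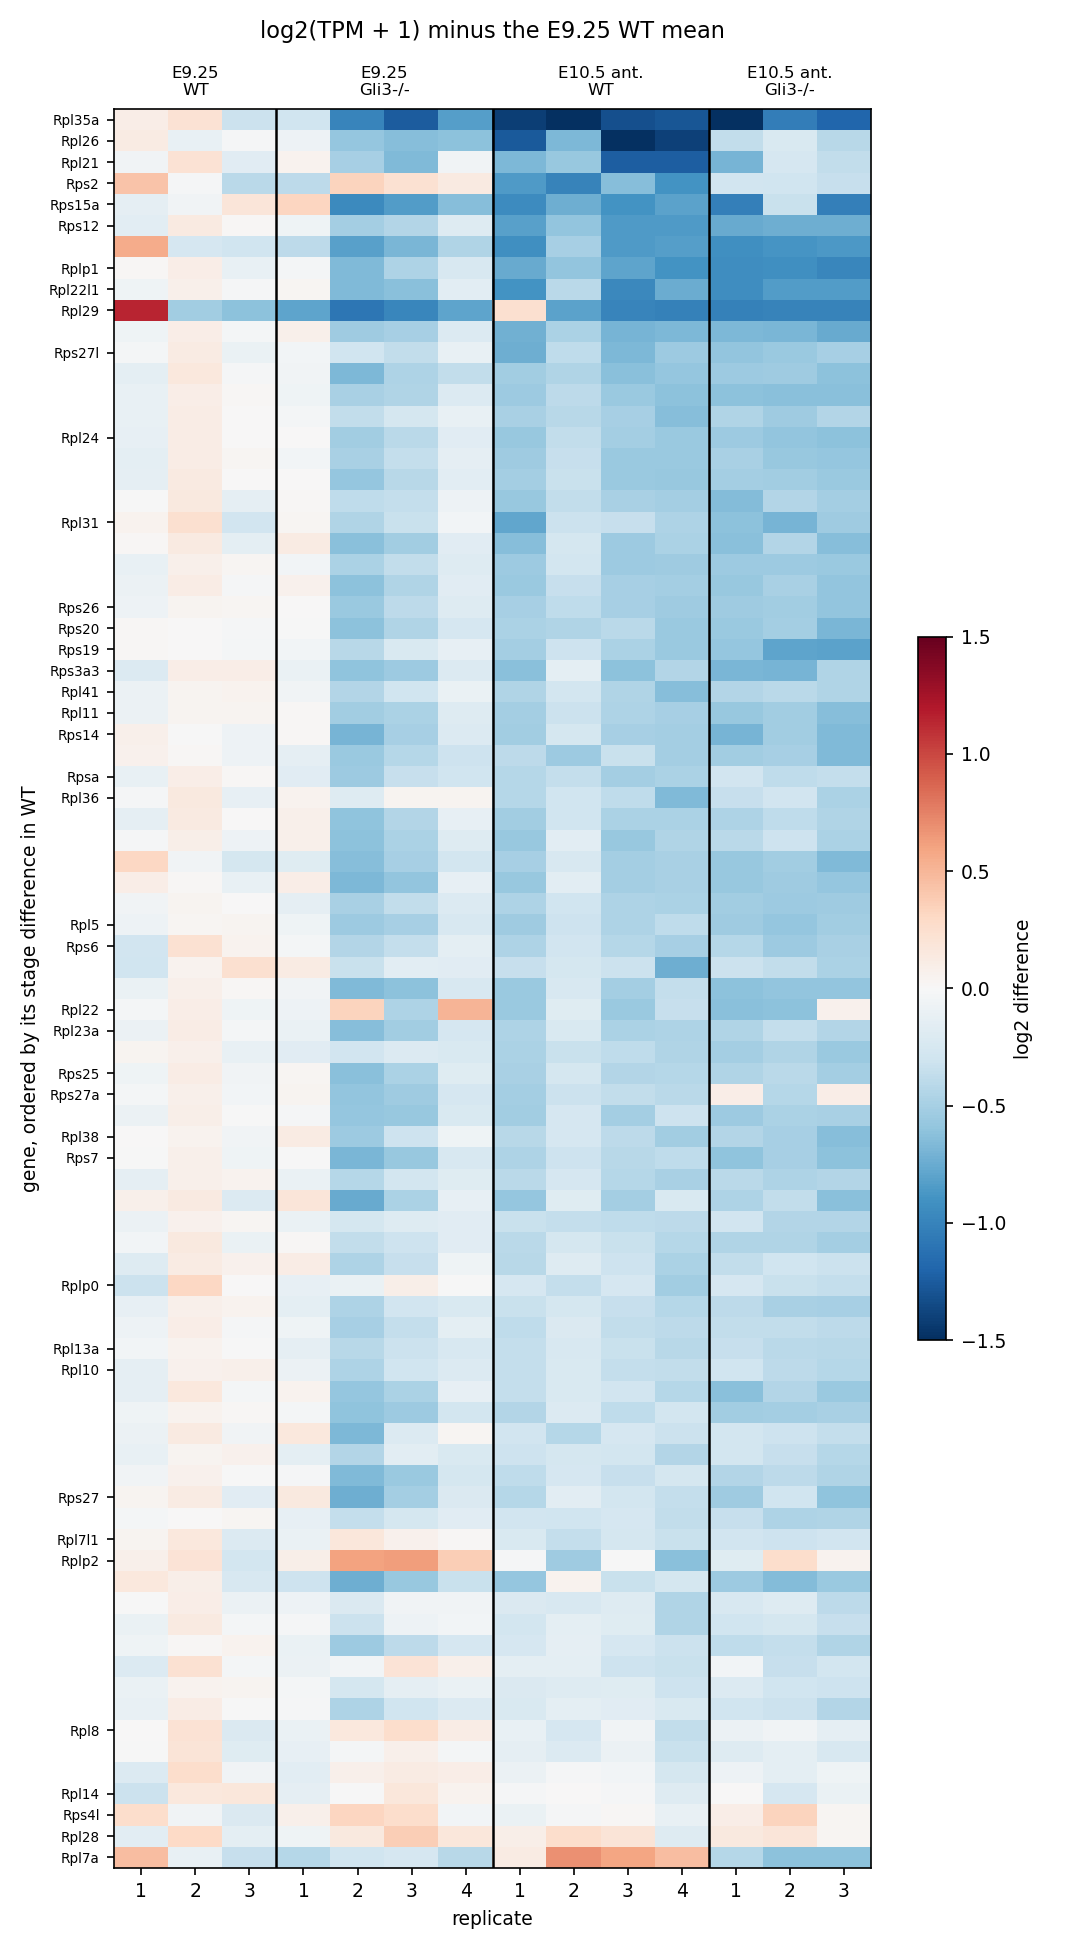
Rows are the 83 tested members, ordered by their stage difference in WT, and columns the 14 libraries by group, with names for members described in the text. Colour gives log2(TPM + 1) minus the mean of the 3 E9.25 WT libraries. Most rows are blue at E10.5 in both genotypes, replicate 1 of E9.25 Gli3-/- resembles E9.25 WT, and Rpl7a, Rpl28 and Rpl14 at the foot stay near the E9.25 WT level or above it in E10.5 WT.

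Of the 3 genes of the stalk, which recruits elongation factors to the large subunit, Rplp1 was called lower. The differences among the 3 were not tested. Rplp1 (ENSMUSG00000007892.7, chr9:61913284-61914538, mm10) was at 5477, 5805 and 5009.7 TPM in E9.25 WT and at 3204, 3586, 3142 and 2906 in E10.5 WT, with no overlap. Its log2 difference was -0.76 ± 0.10 (limma adjusted p = 0.000791). Rplp0, the base of the stalk, was at 2308, 3564 and 2890.1 against 2421, 2242, 2423 and 2011 TPM, and its groups overlapped (log2 difference -0.34 ± 0.15, limma adjusted p = 0.0786). Without E9.25 WT replicate 1, which holds the low value, its limma adjusted p was 0.0124, and Rplp0 also passed with all 14 libraries in 1 fit (limma adjusted p = 0.0336). With size factors or with the span trend removed, both Rplp0 and Rplp2 passed. Without E9.25 WT replicate 2, the log2 difference of Rplp0 was -0.19 (limma adjusted p = 0.278). That of Rplp2 was then -0.20 (limma adjusted p = 0.439). Rplp2 was at 1256, 1374 and 989 against 1179, 823, 1193 and 773 TPM, also overlapping (log2 difference -0.30 ± 0.19, limma adjusted p = 0.204).

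Members known from disease or mouse mutants lay close to the family's median. Rps19, the gene most often mutated in Diamond-Blackfan anemia, was at 1613, 1602 and 1552 TPM in E9.25 WT and 1113, 1283, 1145 and 1082 in E10.5 WT (log2 difference -0.46 ± 0.08, limma adjusted p = 0.00326). Rpl38, lost in the tail-short mouse with homeotic changes of the skeleton, was at 1380.4, 1428 and 1326 against 1034, 1153, 1050.0 and 957 TPM. Its log2 difference was -0.40 ± 0.09 (limma adjusted p = 0.00686). Rpl24, mutated in the belly spot and tail mouse, differed by -0.50 ± 0.09, and Rpl5 and Rpl11, which bind MDM2 as part of the 5S particle, by -0.42 ± 0.08 and -0.45 ± 0.09. Rps7 (-0.39 ± 0.08), Rps20 (-0.47 ± 0.07), Rpsa, a laminin receptor precursor linked to congenital asplenia (-0.44 ± 0.09), and Rps27a, made as a fusion with ubiquitin (-0.40 ± 0.08), fell as well. Rps6, the substrate of S6 kinase, fell by 0.42 ± 0.13 on the log2 scale (limma adjusted p = 0.0245). The Rps6 call was lost without either E9.25 WT replicate 2 or 3, or E10.5 WT replicate 1, 3 or 4 (limma adjusted p = 0.0549 to 0.0773). With quantile normalization, Rpl38, Rpl5, Rps7, Rpsa, Rps27a and Rps6 kept their direction but missed the threshold. Summed with its pseudogene rows, Rpsa was not lower either (log2 difference -0.13, limma adjusted p = 0.243).

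Of the 4 paralogs tested, Rpl22l1, Rps27l and Rpl7l1 were called lower and Rps4l was not. Rpl22l1, a paralog of Rpl22 that binds RNA and acts outside the ribosome too, was at 923, 1013 and 953 TPM in E9.25 WT and 517, 729, 493 and 575 in E10.5 WT. Its log2 difference of -0.75 ± 0.13 (limma adjusted p = 0.00286) stood beside -0.41 ± 0.11 (limma adjusted p = 0.0155) for Rpl22, and the difference between the paralogs was not tested. The Rpl22 call was lost with all 14 libraries in 1 fit (limma adjusted p = 0.109), with quantile normalization and with coverage in place of TPM. Rpl22l1 made up 58.7% to 60.1% of the pair's TPM in E9.25 WT, 42.0% to 61.0% in E9.25 Gli3-/-, 52.2% to 55.5% in E10.5 WT and 43.6% to 55.5% in E10.5 Gli3-/-. The p53 target Rps27l fell by 0.58 ± 0.10 on the log2 scale (limma adjusted p = 0.00296) and Rps27 by 0.30 ± 0.10 (limma adjusted p = 0.0388). The Rps27 call was lost without any 1 of 5 of the 7 libraries (limma adjusted p = 0.0724 to 0.132), E9.25 WT replicate 3 and E10.5 WT replicate 2 being the exceptions. Rps27l took 23.1% to 24.9% of its pair at E9.25 WT and 19.1% to 21.6% at E10.5 WT. Rpl7l1, a nucleolar relative of Rpl7 at 3.82% to 7.61% of the pair in all libraries, had a log2 difference of -0.30 ± 0.10 (limma adjusted p = 0.0361), lost without any library but E9.25 WT replicate 3 (limma adjusted p = 0.0623 to 0.0996). Rps4l, at 1.63% to 3.57% of its pair with Rps4x, showed a log2 difference of -0.06 ± 0.12 (limma adjusted p = 0.718).

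**Figure D3:**
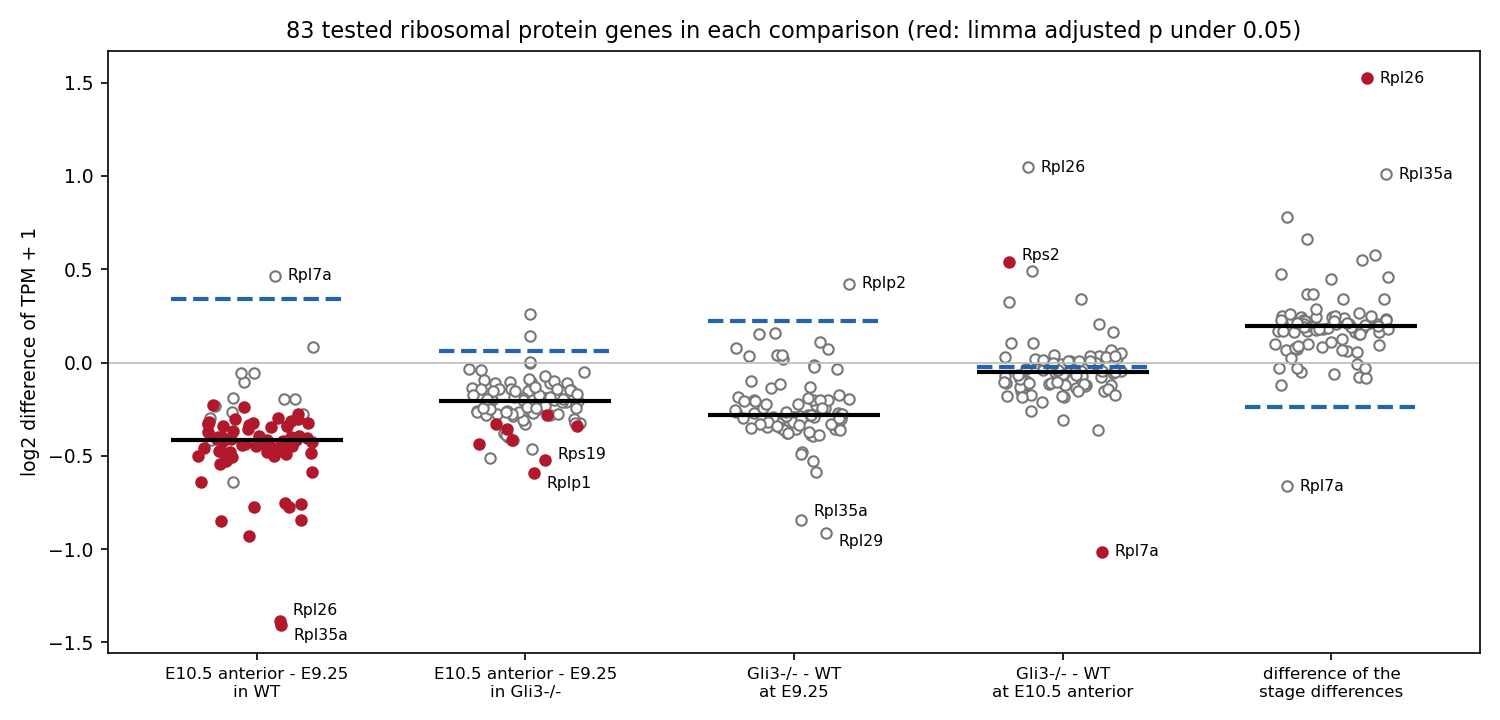
Each point is 1 of the 83 tested members in 1 of 5 comparisons, as the log2 difference of TPM + 1, filled red where limma's adjusted p is under 0.05. Black lines are the members' medians and dashed blue lines the medians over all genes tested, for example -0.41 and 0.34 for the stage difference in WT.

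In Gli3-/- limb buds the same stage comparison called Rplp1, Rps19 and 6 other members lower. Of 83 members 8 fell and 0 rose, while 9.17% of 15434 genes tested were lower and 15.8% higher. The members' median was -0.21 against 0.06 over all genes, and 80 of 83 differences were negative. Rplp1 was at 5292, 3419, 3932 and 4589 TPM in E9.25 Gli3-/- and 2849, 2863 and 2759 in E10.5 Gli3-/-, without overlap (log2 difference -0.59 ± 0.15, limma adjusted p = 0.0177). Rps19 was at 1549, 1191, 1361 and 1463 against 1060.2, 919.7 and 913 TPM, also without overlap (log2 difference -0.52 ± 0.12, limma adjusted p = 0.0104). Rps12 (-0.44 ± 0.13), Rpl31 (-0.42 ± 0.14), Rpl36 (-0.35 ± 0.11), Rps27l (-0.34 ± 0.11) and Rpl7l1 (-0.33 ± 0.10) were the others named by the rule.

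These 8 calls depended on single libraries. Leaving out E10.5 Gli3-/- replicate 2 or 3 gave 0. There 13 and 8 members had an unadjusted p under 0.05, and the counts over all genes are not given here. Leaving out E10.5 Gli3-/- replicate 1 or E9.25 Gli3-/- replicate 4 gave 1, and leaving out E9.25 Gli3-/- replicate 3 gave 5. Without E9.25 Gli3-/- replicate 2 there were 15. Sample quality weights gave 42, with the count over all genes not given here. Summing pseudogene rows gave 5, with Rps12, Rpl31 and Rpl36 no longer called. Flank mesoderm markers summed to 141.6 to 287.0 TPM in E9.25 Gli3-/- and 56.4 to 66.4 in E10.5 Gli3-/-, 6 of 8 being lower and 0 higher, and surface ectoderm markers to 209 to 377 against 136 to 168, 3 of 6 being lower and 1 higher. Of 6 endothelium markers 3 were lower and 1 higher (median -0.61), and of 6 somite and muscle progenitor markers 4 were higher and 1 lower (median 2.27). Their part in the members' differences was not tested.

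Loss of Gli3 at E9.25 changed no member past the threshold. Of 14760 genes tested, 0.108% were higher and 0.0271% lower, and 0 of 83 members were called in either direction by limma. An unadjusted p under 0.05 was found in 21 members and in 3247 of the 14760 genes. The members' median log2 difference was -0.28 against 0.23 over all genes, and 73 of 83 were lower. With all 14 libraries in 1 fit, 3 members were lower, beside 1039 genes higher and 146 lower of 14760. With replicate 2 of E9.25 WT left out the members' median was -0.23. In that fit 6 members and 1621 of 14690 genes had an unadjusted p under 0.05. Replicate 1 of E9.25 Gli3-/- carried member levels like those of WT. Without it 54 members and 4648 of 14559 genes had an unadjusted p under 0.05. The members' median was then -0.35, with 0 adjusted calls of members.

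Rpl35a had the lowest adjusted p in that comparison. It was at 1519.8, 1656 and 1140.3 TPM in E9.25 WT and at 1151, 715, 597 and 798 in E9.25 Gli3-/-, where replicate 1 lay above the lowest WT library. The log2 difference was -0.84 ± 0.22 (limma adjusted p = 0.184). With its pseudogene rows Rpl35a differed by -0.34 (limma adjusted p = 0.242), and with all 14 libraries in 1 fit its own row passed (limma adjusted p = 0.0302). Without replicate 2 of E9.25 WT the difference of Rpl35a was -0.73 (limma adjusted p = 0.396). Rplp2, of the stalk, was the member with the largest positive difference, at 1256, 1374 and 989 TPM in WT and 1269, 1818, 1849.6 and 1543 in Gli3-/- (log2 difference 0.42 ± 0.17, limma adjusted p = 0.217). In the mutant the flank markers Foxf1, Gata4 and Osr1 rose, 3 of 8, and the 8 summed to 64.9 to 115.8 TPM in WT and 141.6 to 287.0 in Gli3-/-. Surface ectoderm markers summed to 126 to 205 TPM in WT and 209 to 377 in Gli3-/-, and endothelium markers to 63.8 to 106 and 119 to 169, without overlap. On both lists 6 of 6 markers had a positive difference and 0 were called. Blood markers summed to 10849 to 19825 TPM in WT and 7728 to 26282 in Gli3-/-, overlapping. The part of these cell types in the members' levels was not tested.

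Loss of Gli3 in anterior E10.5 limb buds called 2 members. Rps2 rose and Rpl7a fell, 1 in each direction, when 1.84% of 15654 genes tested were higher and 2.93% lower. The members' median was -0.05 and that of all genes -0.02. Limb mesenchyme markers summed to 762 to 919 TPM in WT and 588 to 630 in Gli3-/-, 3 of 6 being lower and 1 higher. Blood markers summed to 11421 to 15830 TPM in WT and 13550 to 38221 in Gli3-/-, overlapping. All 6 blood markers had a positive difference and 0 were called. The part of these cell types in the members' differences was not tested. Rpl7a (ENSMUSG00000062647.16, chr2:26910764-26913318, mm10), a large-subunit protein, was at 492, 724, 682 and 621 TPM in WT and at 337, 295 and 295 in Gli3-/-. The groups did not overlap, with a log2 difference of -1.01 ± 0.13 (limma adjusted p = 0.00236). Rps2 (ENSMUSG00000044533.15, chr17:24718116-24721929, mm10) was at 431, 388, 501 and 417 TPM in WT and 638, 634 and 614 in Gli3-/-. These groups did not overlap either, with a log2 difference of 0.54 ± 0.09 (limma adjusted p = 0.00919). Both calls held without each of the 7 libraries in turn. With all 14 libraries in 1 fit, Rps2 missed the threshold (limma adjusted p = 0.184).

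Neither call held once the rows of near-identical copies were added. The 8 pseudogene rows of Rps2 summed to 1532 to 2066 TPM in the WT and 1253 to 1276 in the Gli3-/- libraries of E10.5, more than Rps2 itself and moving the other way. Of these rows, Rps2-ps13 averaged 1218 TPM with and 456 TPM without Gli3. Not all rows moved this way: Rps2-ps10 averaged 449 TPM with and 627 TPM without Gli3, and Rps2-ps6 151 and 154 TPM. Gene and pseudogene rows of Rps2 together gave a log2 difference of -0.26 (limma adjusted p = 0.164), the reverse of the gene's own row. The 11 rows of Rpl7a summed to 515 to 654 TPM in WT and 673 to 684 in Gli3-/-, and with them Rpl7a differed by -0.30 (limma adjusted p = 0.0588). Where counting splits reads between near-identical copies, the level of either row is uncertain. Rps2 also carries a snoRNA gene.

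**Figure D4:**
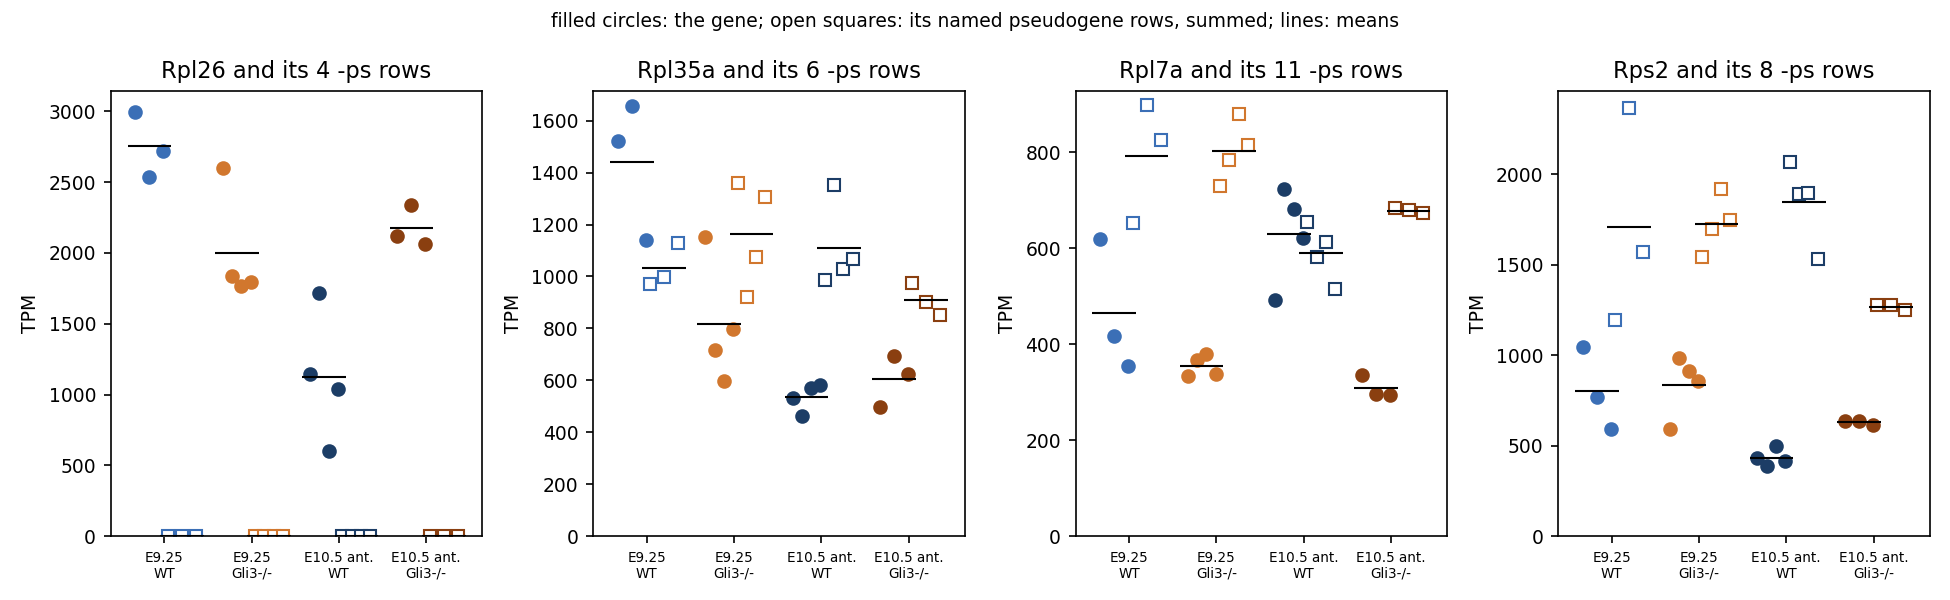
TPM per library, by group, of Rpl26, Rpl35a, Rpl7a and Rps2 (filled circles) and of the summed rows named as their pseudogenes (open squares), with lines at group means and axes from 0. Squares of Rps2 and Rpl7a move against their circles between the E10.5 genotypes, and the 4 Rpl26 pseudogene rows stay under 1 TPM.

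No row named as a pseudogene of Rpl26 reached 1 TPM, and near-identical copies under other names were not searched. The genotype differences of Rpl26, of opposite sign at the 2 stages, did not pass the threshold at either. In E10.5 Gli3-/- it was at 2123, 2339 and 2066 TPM, above all 4 WT libraries (598 to 1716), a log2 difference of 1.05 ± 0.28 (limma adjusted p = 0.071). The limma adjusted p was 0.0186 without E10.5 WT replicate 2 and 0.0456 without replicate 3, 0.0391 with all 14 libraries in 1 fit and 0.0283 with sample quality weights. The other 16 alternatives did not pass, with a limma adjusted p of up to 0.203. Leaving out 1 library gave log2 differences of 0.78 to 1.28. At E9.25 the mutant libraries were at 2602, 1836, 1763 and 1794 TPM against 2538 to 2998 in WT, a log2 difference of -0.48 ± 0.16 (limma adjusted p = 0.217). The stage by genotype term, fitted on all 14 libraries, was 1.52 ± 0.35 for Rpl26 (limma adjusted p = 0.0386). It was the only member past the threshold, when 0.477% of 16368 genes tested were higher and 1.65% lower on this term. The call was lost without any 1 of 10 of the 14 libraries (limma adjusted p = 0.0517 to 0.0926), while the value stayed between 1.25 and 1.76. It was kept without E9.25 WT replicate 1, E9.25 Gli3-/- replicate 1 or E10.5 WT replicate 2 or 3. Without E9.25 Gli3-/- replicate 1, 4 members passed as higher, and without E9.25 WT replicate 1, 2 did. The counts over all genes in these fits are not given here, so these counts cannot be set beside the share of all genes.

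Rpl35a came next on this term at 1.01 ± 0.27 (limma adjusted p = 0.0717), with the call gained without E9.25 Gli3-/- replicate 1 (limma adjusted p = 0.0148). Summed with its pseudogene rows, Rpl35a was at 0.22 (limma adjusted p = 0.475), and over all alternatives its limma adjusted p lay between 0.0148 and 0.475. The members' median on the term was 0.19 against -0.24 over all genes.

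To see which members moved apart from the family, a median was subtracted in each library before the same fits. It was taken over all 87 members, including the 4 under 1 TPM in every library. Relative to that median, 10 members were lower and 4 higher in E10.5 WT than in E9.25 WT, when 2.71% of all genes tested were lower and 65.4% higher on this scale. Rpl35a (-1.05 ± 0.15), Rpl26 (-1.03 ± 0.26), Rpl21 (-0.58 ± 0.16), Rps2 (-0.49 ± 0.19) and Rps15a (-0.49 ± 0.11) led those that fell further than the family. Without replicate 2 of E9.25 WT the counts were also 10 and 4. Rpl7a (0.82 ± 0.18), Rpl28 (0.44 ± 0.11) and Rpl14 (0.30 ± 0.12) were among those above it. Rpl7a, at 620.0, 418 and 355 TPM in E9.25 WT and 492 to 724 TPM in E10.5 WT, had an uncentred log2 difference of 0.47 ± 0.20 (limma adjusted p = 0.0773) and of -0.04 when its pseudogene rows were added. Its uncentred limma adjusted p was 0.00978 without E9.25 WT replicate 1 and 0.0498 without E10.5 WT replicate 1. Without E10.5 WT replicate 1 or 3, 2 members stood above the family. Rpl28, at 1045, 1437 and 1055 TPM in E9.25 WT and 1238, 1396, 1328 and 1017 in E10.5 WT, overlapped between stages.

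On the same centred scale, the E10.5 genotypes differed in Rpl26 (1.12 ± 0.23) and Rps2 (0.61 ± 0.11), which were higher in Gli3-/-, and in Rpl7a (-0.94 ± 0.10), when 1.58% of genes were higher and 1.46% lower. Between stages in Gli3-/-, Rplp1 (-0.37 ± 0.09) and Rps19 (-0.30 ± 0.09) fell further than the family, and Rps27a (0.48 ± 0.14) and Rpl26 (0.36 ± 0.12) stood above it, when 21.4% of genes were higher and 3.89% lower. Rps27a was at 1969, 1369.5 and 1980.1 TPM in E10.5 Gli3-/-, so that replicates 1 and 3 carried its difference. Instead of 4 members, 0 were called without E9.25 Gli3-/- replicate 4 or E10.5 Gli3-/- replicate 1 or 3, 1 (lower) without E9.25 Gli3-/- replicate 3, and 1 in each direction without E10.5 Gli3-/- replicate 2. Between the E10.5 genotypes, 1 member was higher without E10.5 WT replicate 4. No member passed on this scale between genotypes at E9.25, where 4 members and 4653 of 14760 genes had an unadjusted p under 0.05. Without E9.25 Gli3-/- replicate 1, 3 members were higher and 2 lower, beside 2708 genes higher and 30 lower of 14559. The interaction term of Rpl26 was 1.39 ± 0.31 (limma adjusted p = 0.0431), and 0 members passed as higher with a pseudocount of 0.1 or without any 1 of 9 of the 14 libraries.

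Genes that act with the ribosomal proteins were read from lists. Other ribosomal proteins outside the naming rule, such as Rpl36al and Gnb2l1 (RACK1), were lower in 4 of 6 between stages in WT, with a median log2 difference of -0.48. The snoRNA host genes, which share the 5' TOP start, were lower in 7 of 7 (median -0.57), Gas5 by 0.80 on the log2 scale. Ribosome assembly and rRNA synthesis genes were lower in 26 of 33 (median -0.47), led by Wdr12 (-1.14), a PeBoW complex protein, and Nhp2 (-1.13), of the pseudouridylation complex. Translation factors and other 5' TOP genes were less uniform, with 5 of 14 lower, among them Npm1 (-0.88), 1 higher and a median of -0.04. Mitochondrial ribosomal proteins were lower in 36 of 77 and higher in 2 (median -0.28). Over all genes 10.6% were lower and 38.1% higher. Without replicate 2 of E9.25 WT the counts were 3 of 6, 5 of 7, 25 of 33 and 4 of 14 lower in the order given, and 30 of 77 mitochondrial ribosomal proteins lower with 4 higher.

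In Gli3-/- limb buds, assembly genes were lower between stages in 23 of 33, with a median of -0.62, beside 8 of 83 members with a median of -0.21. Over all genes 9.17% were lower and 15.8% higher. Mitochondrial ribosomal proteins were lower in 6 of 77 (1 higher, median -0.18), no more than the share of all genes, snoRNA hosts in 3 of 7 (median -0.39), 5' TOP genes in 3 of 14 (median -0.21) and other ribosomal proteins in 0 of 6 (median -0.28). Assembly genes took 0.496% to 0.5683% of TPM in E9.25 Gli3-/- and 0.345% to 0.384% in E10.5 Gli3-/-, without overlap, and 0.491% to 0.517% and 0.315% to 0.345% in the WT groups. Loss of Gli3 called none of the genes on these lists at E9.25, and at E10.5 it raised Gas5 (0.40) and the assembly factor Eif6 (0.32).

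Among upstream regulators, Myc, which drives ribosome production, fell between stages by 1.66 on the log2 scale in WT (limma adjusted p = 0.00028) and by 2.06 in Gli3-/-. Mycn and Eif4ebp1, a translation repressor that mTORC1 inactivates, also fell in both, and Mycl rose in both. Of 16 genes of MYC and mTORC1 control, 6 rose and 3 fell in WT, and 1 rose and 5 fell in Gli3-/-. The shares of all genes were 38.1% higher and 10.6% lower in WT, and 15.8% and 9.17% in Gli3-/-, so that the 6 that rose in WT are near the share of all genes. Without replicate 2 of E9.25 WT, 4 rose and 3 fell in WT. At E10.5, 1 of the 16 (Larp1) was higher without Gli3. Of 13 genes of the p53 response, which unbound Rpl5 and Rpl11 can trigger, 4 rose and 1 fell between stages in WT, and 3 rose and 1 fell in Gli3-/-, counts near those shares of all genes. At E10.5, loss of Gli3 raised Cdkn1a (1.03, limma adjusted p = 0.00064) and Pmaip1 and lowered Trp53inp1.

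**Figure D5:**
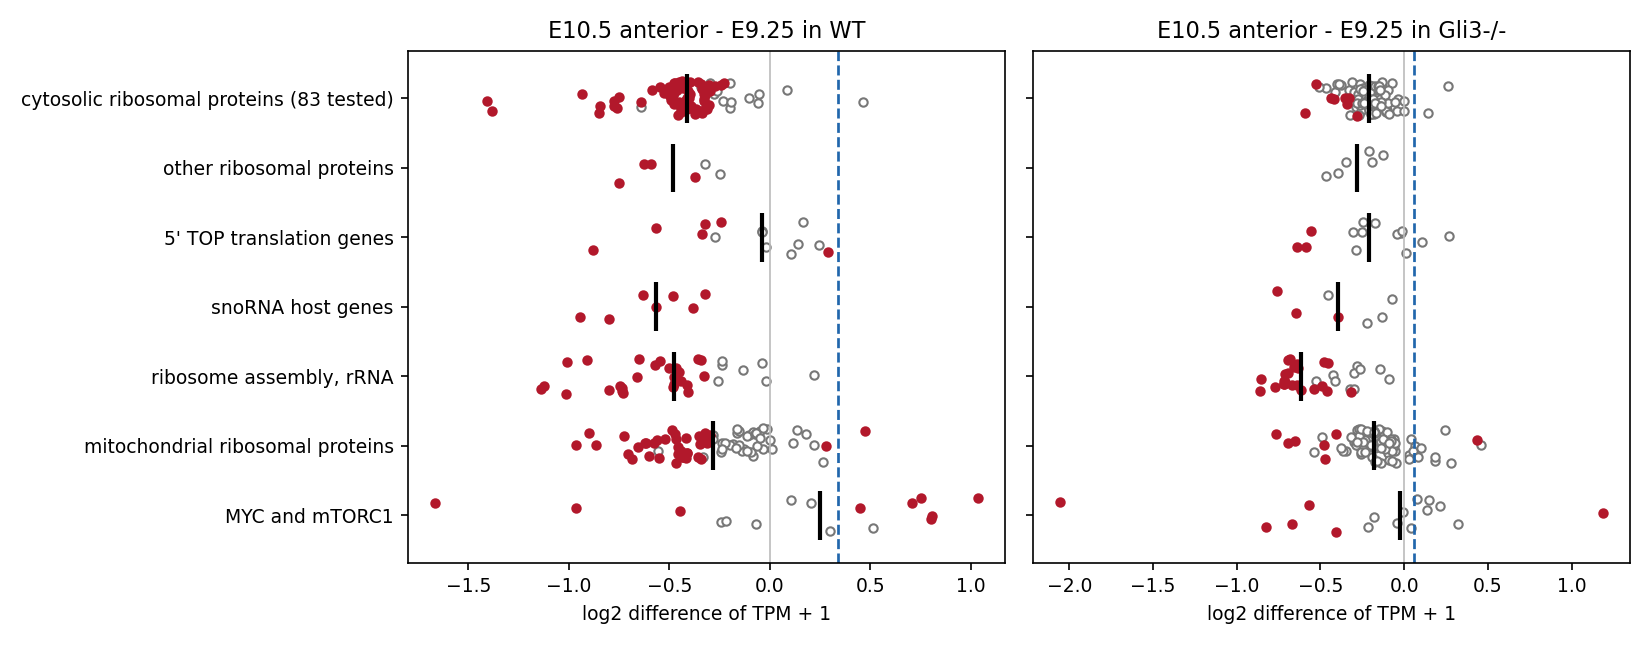
Log2 difference of TPM + 1 between E10.5 anterior and E9.25 limb buds, in WT (left) and Gli3-/- (right), for the 83 tested members and 6 related lists. Points are genes, red where limma's adjusted p is under 0.05, black bars are list medians and the dashed line is the median over all genes. Members and assembly genes lie at similar medians in WT (-0.41 and -0.47), while in Gli3-/- the medians are -0.21 and -0.62.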

How the data were processed

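RNA was measured in 14 libraries of pooled mouse forelimb buds. Per the study's methods, libraries were made with the NEBNext Ultra II kit, sequenced as single-end 100-base reads and aligned with HISAT2, and the submitters' notes name mm10. The deposited gene tables give TPM, FPKM and coverage (signal) per gene for each library. The tool that made them, and whether it used strand, are not given in the sources used here. The authors computed TPM, which sum to 1000000 per library, and FPKM and coverage on the same reads. A count model, as the authors used, cannot be run here because the tables hold no counts. Rows sharing a gene ID were summed. Here TPM was tested as log2(TPM + 1) with limma 3.58.1 (two-sided, with a trend on mean level in eBayes, in R 4.3.3) over genes that reached TPM 1 in 3 or more libraries of the fit, in the 2 groups of each comparison, and with all 14 libraries for the stage by genotype term. P-values were adjusted by Benjamini-Hochberg over all genes tested, with a threshold of 0.05. Fold changes on this scale understate those of low genes. Depth was estimated from coverage and FPKM, and 1 TPM stood for about 20.7 to 29.3 reads per kb. The fits were tested on simulated data. Tables were handled in Python 3.11.15 with pandas 2.3.3 and numpy 2.4.6, and plotted with matplotlib 3.10.9.

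Members, related lists and tests were chosen with earlier results of these data known. The lists held other ribosomal proteins, 5' TOP genes, snoRNA hosts, ribosome assembly, mitochondrial ribosomal proteins, MYC and mTORC1 control, the p53 response and cell type markers. Genes were named by a rule: all members called in a direction where there were 5 or fewer, otherwise the 5 with the largest difference, the 5 highest and lowest by mean TPM, paralogs with their parents, the stalk genes, and members with known roles. Rpl23a, Rps25 and Rpl8 were named after their values were seen, and 1 member that the rule would name is not reported here. Groups came from the labels. P-values measure the spread between pooled libraries. Alternatives were another pseudocount, other filters, scalings, sample weights, a replicate block, all libraries in 1 fit and each library left out. Summing genes with their pseudogene rows, coverage in place of TPM, and the related lists and non-overlapping members without E9.25 WT replicate 2, were chosen after seeing the data. The other 53 samples (binding, chromatin and accessibility) were not used here.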

Additional observations from a re-analysis of the deposited data

Results flagged for a closer look

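In groups of 4 libraries, 88 sets of values were searched for a library far from the other 3, which chance gives about 1 time in 20, and 7 were found. Rpl26 stood at 2602 TPM in E9.25 Gli3-/- replicate 1, against 1836 in the nearest of the others. Rpl36 was low in E9.25 Gli3-/- replicate 2, at 1271 TPM against 1497. In E10.5 WT replicate 2, 3 members stood above the other libraries, Rpl10 at 1743 TPM (next 1603), Rps12 at 2534 TPM (next 2174) and Rps14 at 3690.0 TPM (next 3141). In E10.5 WT replicate 1, Rpl29 was at 210.6 TPM against 102 in the next library. In E10.5 WT replicate 4, Rpl14 was at 1372 TPM against 1546.

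Rpl26 was the member whose stage difference differed between genotypes, with an interaction term of 1.52 on the log2 scale (limma adjusted p = 0.0386, 14 libraries). Over all alternatives its adjusted p lay between 0.00598 and 0.156. In WT all 4 E10.5 libraries were below the 3 of E9.25, and in Gli3-/- the 3 E10.5 libraries lay between the highest and the second highest of E9.25.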

How the results depend on the processing

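Among alternatives for the members named, 657 kept direction and side of the threshold, 118 lost the call, 16 gained one and 3 reversed: Rplp2 between stages in WT with sample quality weights (0.0159, limma adjusted p = 0.95), and, with pseudogene rows summed in, Rpl7a between stages in WT (-0.0435) and Rps2 for Gli3 loss at E10.5 (-0.26). Counts, medians and sums stayed close in 336 cases and moved in 87. At E9.25, loss of Gli3 gave 3 members lower with all 14 libraries in 1 fit, beside 146 of 14760 genes. The members' median log2 difference there was -0.52 with size factors and -0.12 with quantile normalization. Leaving out 1 library at a time, centred calls there were 0 to 3 higher and 0 to 2 lower. At E10.5, sample weights gave 3 higher and 2 lower, and summing pseudogene rows 0 and 0. Leaving out 1 library gave 1 to 2 higher, and 1 to 3 higher when centred.

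Between stages in WT, 1 member was higher with quantile normalization (30 lower) and with all 14 libraries in 1 fit. The median was -0.76 with size factors, -0.21 with quantile normalization and -0.64 without the span trend. Leaving out 1 library gave 0 to 1 higher and 51 to 67 lower, and 2 to 4 higher when centred. Without replicate 2 of E9.25 WT, 4 mitochondrial ribosomal proteins were higher. In Gli3-/-, 3 were lower without a filter, 3 without a trend in eBayes, 5 with size factors, 5 with quantile normalization, 42 with sample weights and 5 with pseudogene rows. Leaving out 1 library gave 0 to 15 lower, and 0 to 2 higher and 0 to 3 lower when centred. For the interaction, 0 were higher without a filter or with quantile normalization and 2 with sample weights, and 0 when centred with pseudocount 0.1. Leaving out 1 library gave 0 to 4 higher and 0 to 1 lower, and 0 to 2 and 0 to 1 when centred. Interaction medians were 0.47 with size factors and 0.36 without the span trend.

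By the titles, same-numbered libraries did not deviate together on average (mean correlations -0.168 at E9.25, -0.053 at E10.5, -0.033 and 0.039 between stages). With 3 such pairs in each comparison, these values cannot show whether replicate numbers pair samples. For E10.5 Gli3-/- the numbers in the deposited tables differ from the titles. By them the 3 same-numbered pairs correlated at 0.171 on average (0.05 to 0.292), with 1 pair under 0.1, against -0.057 for the other pairs. A block by those numbers kept 1 member higher and 1 lower. The replicate block by titles, which leaves E10.5 WT replicate 4 unmatched, gave 0 calls in either direction at E10.5, 57 lower between stages in WT, 2 lower in Gli3-/- and 0 for the interaction.

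The summed share was 11.8%, 9.99%, 8.69% and 8.47% (E9.25 WT, E9.25 Gli3-/-, E10.5 WT, E10.5 Gli3-/-) without members overlapped on the same strand, and 19.3%, 16.4%, 14.6% and 14.0% with pseudogene rows added. The cause of these shifts was not tested. TPM carry no counting error of their own. The lowest tested member, Rps3a3, still had an estimated 1230.0 reads per kb per library, so replicate spread, with 3 or 4 libraries a group, sets the precision.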
